A study of Caenorhabditis elegans with 4 samples.

Results

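The ceh genes (C. elegans homeobox) of the nematode Caenorhabditis elegans encode transcription factors that bind DNA through a homeodomain. They were taken as every row of the deposited gene tables whose gene name is ceh followed by a number, which gave 65 of 46904 genes. Ensembl's annotation lists 64 of these as protein coding and ceh-85 as a pseudogene. Homeodomain proteins are known for fixing the identity of cells along the body axis and in the nervous system, and many worm neuron types are defined by their own combination of them. The class names used here (PBC, sine oculis, NK, PRD-like, POU, LIM, CUT) follow the kind of homeodomain and any second domain beside it. In an adult hermaphrodite, the embryos it carries are a second source of homeobox RNA beside the mother's own tissues.

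RNA came from whole wild-type Bristol N2 hermaphrodites, about 200 worms in each group, and was selected as poly(A) RNA for a strand-preserving library. The group titled OPd4 (2 libraries) was fed OP50, the standard Escherichia coli food of worm laboratories, and the group titled OPMHd4 (2 libraries) is labelled as fed OP50 + MH-1. MH-1 is a strain of Lactiplantibacillus sp., a genus of lactic acid bacteria. Genotype and strain were the same in both groups. One label text gives the age as 4 days with 1 day of feeding, another gives an age of 1 day and 2 days of culture with no word of OP50 beside MH-1, and the labels do not settle this. In each of the 4 files the column of counts is headed with the name of the opposite group, so every direction here follows the sample titles and would turn around, with the same fold and p-value, if the headers are right. Nothing says that replicates came from separate cultures, so p-values reflect only how far these libraries differ, and that spread may be technical. Total counts lay between 15771890 and 21572225 a library, and 3 counts corresponded to between 0.138 and 0.186 CPM (counts per 1000000 on the TMM-adjusted library size), a floor that covers counting error only. The OPMHd4 libraries differed more from each other (chi-square per degree of freedom of 24.8) than OPMHd4 replicate 2 differed from either OPd4 library (19.6 and 18.9), while the OPd4 libraries differed by 10.1.

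The 65 genes differed widely in level, and a single CUT gene, ceh-38, gave between 18.5% and 21.7% of their reads in a library. On RPKM, which here is CPM divided by the exon length in kilobases and so a level per length, 18 genes had a mean of at least 10 over the 4 libraries, 19 lay between 1 and 10, and 28 lay under 1. The filter on low counts left 44 genes for testing, among them all 37 with a mean of at least 1. Of the 21 that were not tested, 6 had 0 reads in all 4 libraries, namely ceh-12, ceh-28, ceh-75, ceh-84, ceh-85 and ceh-87, and the other 15 had at most 16 reads in any library. A count of 0 limits the level to the floor of 3 counts and does not show that a gene is silent. The summed level of all 65 genes was 939 and 933 CPM in OPd4 and 959 and 1012 CPM in OPMHd4, so that the OPMHd4 libraries stood at 1.02 and 1.08 times the OPd4 mean.

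In OPMHd4, 5 ceh genes rose and 0 fell: ceh-20 of the PBC class, ceh-32 and ceh-34 of the sine oculis class, ceh-27 of the NK-2 family and the Distal-less gene ceh-43. Each was between 1.88-fold and 3.32-fold higher, at an adjusted p under 0.05 (edgeR quasi-likelihood test, Benjamini-Hochberg over 12640 genes). Of all tested genes, 1.82% were called higher and 0.332% lower, and of the 44 tested ceh genes 11.4% were called higher. At an unadjusted p under 0.05, 14 of the 44 tested ceh genes were higher and 1 was lower. Among the 14 are ceh-6 and ceh-8, which passed the filter on low counts through OPMHd4 alone. Those genes could hardly have been tested without being higher there. ceh-48 and ceh-89, also among the 14, reached the filter's cutoff in 1 OPd4 library and both OPMHd4 libraries, so their passing also leaned on OPMHd4. At the same cutoff, 9.46% of all tested genes were higher and 4.61% lower. The count rests in part on 1 library: without OPMHd4 replicate 1, 1 ceh gene (ceh-20) was called, in a fit where the remaining OPMHd4 library is assumed to vary like those of OPd4. With 2 libraries a group, an exact permutation test of a single gene cannot go below a two-sided p of 0.333.

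**Figure D1:**
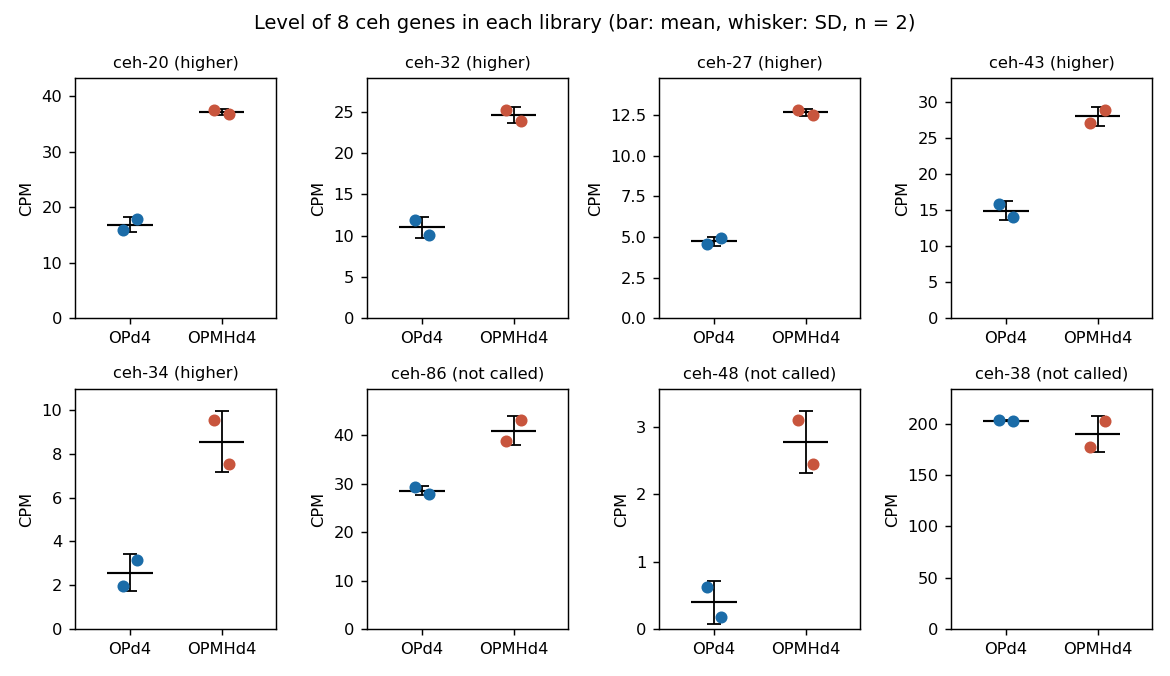
Level in CPM (linear axis from 0) of the 5 called ceh genes and of ceh-86, ceh-48 and ceh-38, 1 point per library, with the mean (bar) and SD (whisker, n = 2). The groups stand apart for the first 7 genes, with the higher values in OPMHd4. ceh-38 has libraries at 203, 203, 177 and 202 CPM. Its groups stand apart narrowly in the other direction, the nearest libraries being at 202.7 CPM (OPd4) and 202.5 CPM (OPMHd4).

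The PBC genes encode relatives of Drosophila Extradenticle, partners with which Hox proteins bind DNA, and 1 of the 3 members rose. ceh-20, the Extradenticle relative that pairs with several worm Hox proteins, stood at 15.9 and 17.8 CPM in OPd4 and at 37.5 and 36.7 CPM in OPMHd4. Both OPMHd4 libraries were thus above both OPd4 libraries, with a log2 fold change of 1.14 ± 0.11 (SE, edgeR quasi-likelihood adjusted p = 0.00965). It was called in all 14 alternatives tried. The 14 include the main fit read at an adjusted p under 0.10, where a call made under 0.05 cannot be lost. In the tables' coordinates (ce11, WBcel235) ceh-20 lies on the plus strand of chromosome III, from 6979884 to 6981785. Its paralog ceh-40, which overlaps with it in embryos, had 13.6 and 14.04 CPM in OPd4 against 12.3 and 17.9 CPM in OPMHd4, groups that overlap. ceh-60, known for work in the intestine that includes yolk protein genes, had 2.24 and 3.11 CPM in OPd4 and 3.53 and 2.72 CPM in OPMHd4, again overlapping (log2 fold change 0.22 ± 0.33, SE). All 6 yolk protein genes vit-1 to vit-6 also overlapped between groups. vit-2, for example, ranged from 22256 to 23051 CPM in OPd4 and from 15941 to 24408 CPM in OPMHd4.

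Both ceh genes of the sine oculis class that could be tested rose. ceh-32, needed for the shape of the head, stood at 11.9 and 10.1 CPM in OPd4 and at 25.3 and 23.9 CPM in OPMHd4 (log2 fold change 1.16 ± 0.14, SE, edgeR adjusted p = 0.0168). ceh-34, known as a regulator of pharyngeal neurons, stood at 1.96 and 3.17 CPM in OPd4 and at 9.54 and 7.57 CPM in OPMHd4, which is 3.32-fold higher (log2 fold change 1.73 ± 0.31, SE, edgeR adjusted p = 0.0427). The groups do not overlap for either gene. The ceh-34 call was lost without OPMHd4 replicate 1 (edgeR adjusted p = 0.156) and with limma-voom (0.0583), and that of ceh-32 without OPMHd4 replicate 1 (0.0567). The third ceh gene of the class, ceh-33, a close neighbour of ceh-34, had 5 and 4 reads in OPd4 and 6 and 7 in OPMHd4, too few to test. unc-39, of the same class under another name, had 3.81 and 1.98 CPM against 5.76 and 6.64 CPM, without overlap and without a call (edgeR adjusted p = 0.213). eya-1, whose product is the usual partner of these proteins, had 3.25 and 3.40 CPM against 6.38 and 7.38 CPM, groups that stood apart without a call (edgeR adjusted p = 0.0992). ceh-34 lies on chromosome V from 5315513 to 5319577 and ceh-32 on chromosome V from 11701764 to 11705400, both on the minus strand.

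Among the NK-2 genes, of which 3 of 5 were tested, ceh-27 rose. It stood at 4.54 and 4.92 CPM in OPd4 and at 12.8 and 12.5 CPM in OPMHd4, which is 2.67-fold higher with groups that stand well apart (log2 fold change 1.42 ± 0.19, SE, edgeR adjusted p = 0.0212, and 0.0679 without OPMHd4 replicate 1). ceh-27 lies on the minus strand of chromosome V from 11661670 to 11665085. The pharyngeal muscle regulator ceh-22 had 8 and 3 reads in OPd4 and 23 and 14 in OPMHd4, and was not called (log2 fold change 1.69 ± 0.73, SE, edgeR adjusted p = 0.36). Its direct target myo-2, a pharyngeal myosin, pointed the other way, with 31.6 and 36.96 CPM in OPd4 and 19.8 and 31.4 CPM in OPMHd4, also without a call. ceh-51, which acts in the mesoderm of the early embryo, overlapped between groups at 11.7 and 8.15 CPM against 8.18 and 10.8 CPM. Its upstream activator tbx-35 had 13 and 15 reads in OPd4 and 1 and 5 in OPMHd4 and was not called (edgeR adjusted p = 0.225). tbx-35 passed the filter on low counts through OPd4 alone, so it could hardly have been tested without being lower in OPMHd4. ceh-24, of pharyngeal and vulval muscle, had between 2 and 8 reads a library and ceh-28 had none, so neither was tested.

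Of the 13 other genes of the ANTP class, 7 were tested, and the Distal-less gene ceh-43 was the called one. ceh-43, which works in the anterior epidermis of the embryo and in dopamine neurons, stood at 15.9 and 13.98 CPM in OPd4 and at 27.1 and 28.9 CPM in OPMHd4, without overlap (log2 fold change 0.91 ± 0.13, SE, edgeR adjusted p = 0.0227, and 0.0557 without OPMHd4 replicate 1). It lies on the minus strand of chromosome III from 4446637 to 4449943. The engrailed gene ceh-16, of the epidermal seam cells, had 2.24 and 1.64 CPM against 3.59 and 4.29 CPM, and the Hox gene ceh-13, the labial relative, had 3.76 and 4.70 CPM against 5.88 and 7.89 CPM. Both had groups that stood apart, and neither was called (edgeR adjusted p = 0.212 and 0.303). ceh-19, known in pharyngeal motor neurons, stood apart with 5 and 15 reads against 16 and 20, too few for a firm statement. ceh-2, ceh-5 and ceh-30 overlapped between groups. The remaining 6, ceh-1, ceh-7, ceh-9, ceh-12, ceh-23 and ceh-31, were not tested.

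No PRD-like, POU or LIM gene was called, although the groups stood apart for all 8 that were tested, each with the higher values in OPMHd4. Of all tested genes, 24.4% stood apart in that direction and 21.6% in the other. The Otx genes ceh-36 and ceh-37, which act in chemosensory neurons, had log2 fold changes of 0.59 ± 0.23 and 0.61 ± 0.26 (SE). ceh-36 stood at 7.23 and 5.26 CPM in OPd4 and at 9.48 and 9.37 CPM in OPMHd4, and ceh-37 at 8.86 and 5.43 CPM against 11.1 and 10.7 CPM. ceh-10, the Chx10 relative of the AIY interneurons, had 13 and 11 reads in OPd4 and 37 and 34 in OPMHd4 (log2 fold change 1.495 ± 0.46, SE, edgeR adjusted p = 0.199). ceh-8, the Rx relative, had 1 and 0 reads in OPd4 and 19 and 12 in OPMHd4. The ratio of its summed reads, scaled to library size, was 29.1 with a 95% exact binomial interval from 4.85 to 1186 that covers counting error only, and it was not called (edgeR adjusted p = 0.106, and 0.00709 without a filter on low counts). The goosecoid relative ceh-45 stood at 0.56 ± 0.40 (log2 fold change ± SE). The POU gene ceh-6, of the excretory cell, had 10 and 8 reads against 30 and 25, while ceh-18, the POU gene of the gonadal sheath, had 3.59 and 3.34 CPM against 3.78 and 4.84 CPM. The LIM gene ceh-14, of thermosensory and other neurons, had 16 and 18 reads in OPd4 and 21 and 23 in OPMHd4 (log2 fold change 0.29 ± 0.45, SE). ceh-8, ceh-6 and ceh-22 passed the filter through OPMHd4 alone, so that they could hardly have been tested without being higher there, and ceh-17, ceh-53 and ceh-54 were not tested.

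**Figure D2:**
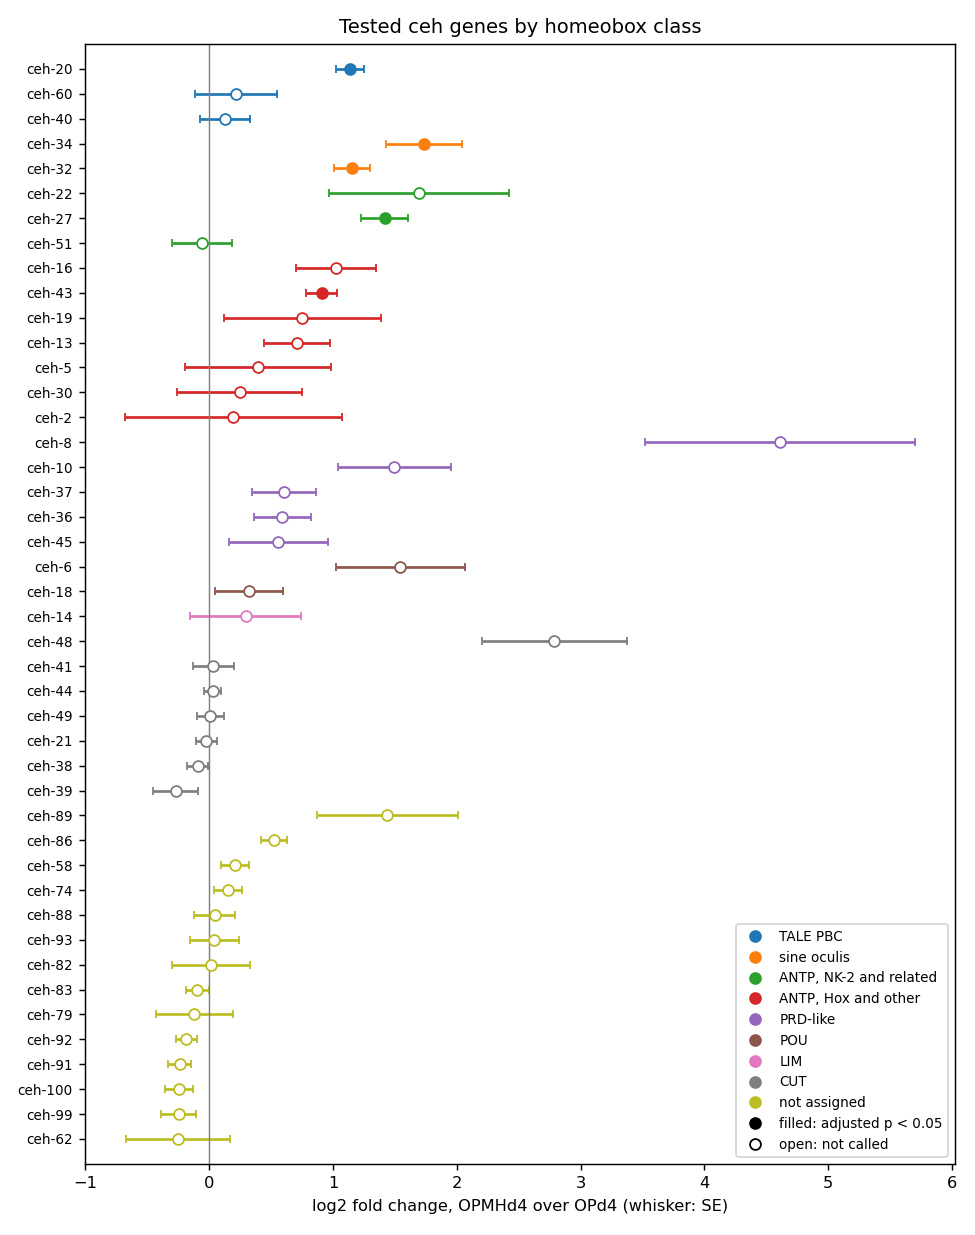
Log2 fold change of OPMHd4 over OPd4 (x axis, whisker: SE) for the 44 tested ceh genes, in colours by homeobox class. The 5 filled points are the called genes, between 0.91 and 1.73, and the 6 CUT genes other than ceh-48 lie between -0.27 and 0.03.

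No CUT gene was called, and 6 of the 7 had log2 fold changes between -0.27 and 0.03. Their proteins carry a cut domain beside the homeodomain. ceh-38, with the highest level per length of all ceh genes at a mean of 71.6 RPKM, stood at 203 and 203 CPM in OPd4 and at 177 and 202 CPM in OPMHd4 (log2 fold change -0.09 ± 0.08, SE). The row named ceh-44 had 112 and 111 CPM against 116 and 111 CPM, and its gene identifier carries the symbol cone-1 in Ensembl's annotation of this build, so reads of 2 named products of this locus are counted together. ceh-49 stood at 24.7 and 25.1 CPM against 26.0 and 24.2 CPM, and ceh-21 and ceh-41 had log2 fold changes of -0.02 ± 0.09 and 0.03 ± 0.16 (SE). ceh-39, an X-linked signal that represses the sex switch gene xol-1 in embryos, had 47.5 and 41.8 CPM in OPd4 and 29.7 and 44.1 CPM in OPMHd4, so that 1 OPMHd4 library lay low and the other within the OPd4 range. xol-1 itself overlapped at 2.69 and 3.28 CPM against 3.47 and 2.35 CPM. The seventh was ceh-48, a CUT gene active throughout the nervous system, with 11 and 3 reads in OPd4 and 50 and 53 in OPMHd4. Its log2 fold change was 2.79 ± 0.58 (SE) and it was not called (edgeR adjusted p = 0.0744), while DESeq2 called it (adjusted p = 0.00844) and so did the fit without OPd4 replicate 1 (0.0113). None of 16 neuron markers was called. Their summed level was 522 and 531 CPM in OPd4 and 536 and 500 CPM in OPMHd4.

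The 23 genes with numbers that were assigned to no class here, 14 of them tested, held no call. The nearest was ceh-86, at 29.3 and 27.9 CPM in OPd4 and 38.8 and 43.1 CPM in OPMHd4, a log2 fold change of 0.52 ± 0.10 (SE, edgeR adjusted p = 0.0645, and 0.0497 with DESeq2). ceh-89 had 6 and 14 reads against 30 and 27 (log2 fold change 1.44 ± 0.57, SE). Several abundant members leaned the other way by a small amount. ceh-91 stood at 50.0 and 48.7 CPM in OPd4 and at 43.2 and 40.5 CPM in OPMHd4, and was the 1 ceh gene lower at an unadjusted p under 0.05 (log2 fold change -0.24 ± 0.09, SE, edgeR adjusted p = 0.312). ceh-92 stood at 72.6 and 70.3 CPM against 60.1 and 65.3 CPM, also without overlap and without a call. ceh-83 overlapped between groups, at 54.4 and 56.5 CPM against 54.5 and 49.3 CPM, and ceh-74 stood apart upwards at 20.97 and 20.04 CPM against 22.9 and 22.7 CPM (log2 fold change 0.15 ± 0.11, SE). The other 8 tested had log2 fold changes between -0.25 and 0.21.

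**Figure D3:**
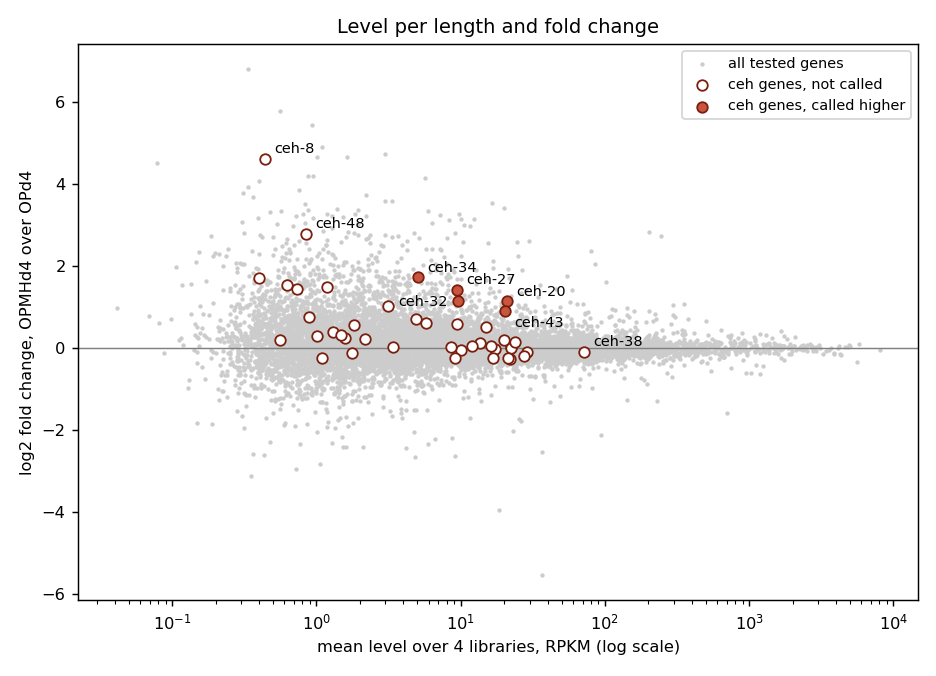
Mean level over the 4 libraries in RPKM (x axis, log scale) against log2 fold change of OPMHd4 over OPd4 for all 12640 tested genes (grey) and the 44 tested ceh genes (circles, filled where called). The called ceh genes sit at mean levels between 5.09 and 21.1, and the most abundant, ceh-38 at 71.6, lies close to 0.

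By level, the called genes belonged to the middle and upper range and not to the top. Among the 12 ceh genes with the highest level per length, ceh-20 and ceh-43 were called, and the log2 fold changes of the 12 were positive in 6 and negative in 6. Over the 44 tested genes, both OPMHd4 libraries were above both OPd4 libraries in 22 (50%) and below in 6 (13.6%), where 24.4% and 21.6% of all tested genes were. Leaving out ceh-6, ceh-8 and ceh-22, which passed the filter through OPMHd4 alone, 19 of 41 were above and 6 below. Over all genes that did not pass through 1 group alone, 2853 of 12344 were above and 2669 below. The 19 still hold ceh-19, ceh-48 and ceh-89, which reached the filter's cutoff in 1 OPd4 library and both OPMHd4 libraries. Their passing thus also leaned on OPMHd4. The median log2 fold change of the 44 was 0.23, beside 0.0027 over all tested genes. Without ceh-6, ceh-8 and ceh-22 it was 0.21, beside -0.0016 over all genes that did not pass through 1 group alone. These are descriptions of a family picked with results known, not a test of it.

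The homeobox genes with other names, a fixed list of 39, were fitted in the same test. Of 35 tested, 2 rose and 0 fell. unc-62, the Meis relative that binds DNA together with CEH-20, stood at 59.0 and 58.5 CPM in OPd4 and at 81.0 and 82.4 CPM in OPMHd4 (log2 fold change 0.48 ± 0.08, SE, edgeR adjusted p = 0.0328). pros-1, the Prospero relative of glia and the excretory system, stood at 1.46 and 1.98 CPM against 7.99 and 4.98 CPM (log2 fold change 1.91 ± 0.35, SE, edgeR adjusted p = 0.0471). Neither call held in every alternative. For unc-62 the adjusted p was 0.0621 and 0.108 without OPd4 replicates 1 and 2 and 0.0652 without OPMHd4 replicate 1. For pros-1 it was 0.0559 without OPd4 replicate 1, 0.181 without OPMHd4 replicate 1, 0.106 with limma-voom and 0.0684 with legacy=FALSE. The next 5 by p-value had groups that stood apart and no call. The Pax6 gene vab-3 had a log2 fold change of 1.03 ± 0.22, the neuronal regulator unc-42 of 2.75 ± 0.59 and the Iroquois gene irx-1 of 1.14 ± 0.26 (SE). duxl-1 stood at 0.34 ± 0.08 (log2 ± SE), and eyg-1 had 1 and 2 reads in OPd4 and 43 and 16 in OPMHd4. Over the 35 genes, the groups stood apart upwards in 22 and downwards in 1 (zfh-2), and the median log2 fold change was 0.74, beside 24.4% upwards, 21.6% downwards and a median of 0.0027 over all tested genes. Leaving out eyg-1, lim-4 and tab-1, which passed the filter through OPMHd4 alone, 19 of 32 stood apart upwards and 1 downwards, with a median of 0.68. Over all genes that did not pass through 1 group alone, 2853 of 12344 stood apart upwards and 2669 downwards, with a median of -0.0016. The 19 still hold unc-42, which had 13 and 7 reads in OPd4 and reached the filter's cutoff in 1 OPd4 library and both OPMHd4 libraries. The other listed PBC partner, psa-3, overlapped between groups at 1.74 and 0.79 CPM against 1.30 and 1.94 CPM, and the abundant caudal gene pal-1 overlapped at 160 and 167 CPM against 148 and 161 CPM.

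**Figure D4:**
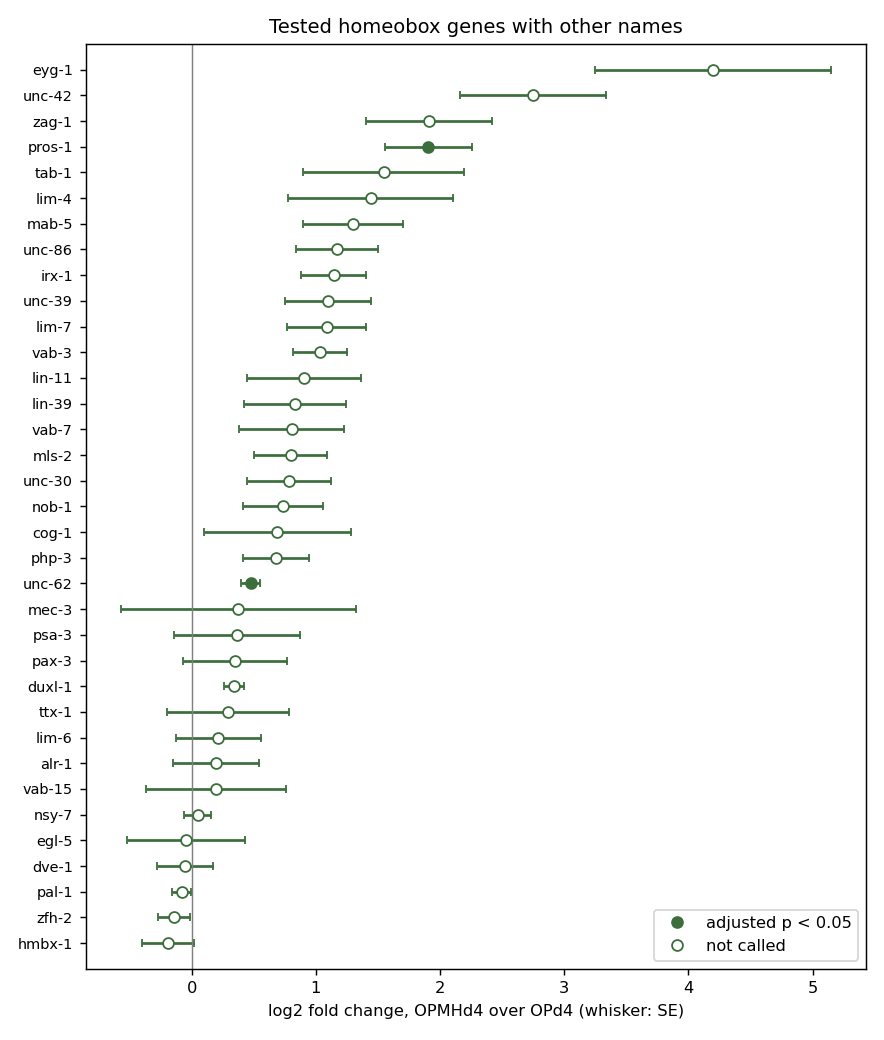
Log2 fold change of OPMHd4 over OPd4 (x axis, whisker: SE) for the 35 tested homeobox genes with names other than ceh, ordered by value, with filled points for the 2 called genes. unc-62 (0.48) and pros-1 (1.91) are called, and 30 of the 35 values are above 0.

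Some markers of embryos, of the epidermis and of molting were also higher in OPMHd4, where 1.82% of all tested genes were called higher. In bulk RNA of whole worms, fewer or more cells of a type and less or more RNA per cell cannot be told apart. Of 15 embryo markers 13 were tested, and 3 rose and 0 fell: the pharynx regulator pha-4 (14.4 and 13.02 CPM against 32.5 and 32.5 CPM), the hatching protease hch-1 (4.99 and 2.04 CPM against 41.99 and 26.1 CPM) and sym-1 (36.9 and 17.2 CPM against 107 and 94.99 CPM). Of the 13, 10 log2 fold changes were positive and 3 negative, the lowest being tbx-35 at -2.29, uncalled. tbx-35 passed the filter on low counts through OPd4 alone, so it could hardly have been tested without being lower in OPMHd4. The summed level of the 15 was 303 and 269 CPM in OPd4 and 444 and 427 CPM in OPMHd4, with med-2 at 0 reads in every library and the early endoderm genes end-1 and end-3 overlapping between groups. Of 11 molting markers, 5 rose (noah-1, noah-2, fbn-1, lpr-3 and mlt-11), and the 11 summed to 114.5 and 77.5 CPM against 378 and 291 CPM. Their log2 fold changes were positive in 9 and negative in 2, mlt-7 at -0.04 and nas-37 at -0.23, both uncalled. Of 6 epidermis markers, 5 were tested and 2 rose (dpy-7 and nhr-25), while rol-6 was at -0.46 (log2 fold change), uncalled. The 6 summed to 155 and 150 CPM against 212 and 186 CPM, with bli-1 at 0 reads throughout. With robust=TRUE, the calls of hch-1, sym-1, dpy-7, noah-1, noah-2, fbn-1 and mlt-11 were lost (adjusted p between 0.0706 and 0.224), while the 5 ceh calls were kept. Without OPMHd4 replicate 1 those of sym-1, fbn-1 and mlt-11 were also lost (edgeR adjusted p = 0.0727, 0.0636 and 0.0859), and under limma-voom that of dpy-7 (0.161). The part of these tissues and stages in the ceh differences was not tested.

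Among markers of other tissues, 1 was called. Of 16 oocyte and germline markers none was called, and all 16 log2 fold changes were negative, with a median of -0.13. Their sum was 13643 and 12983 CPM in OPd4 and 11864 and 11797 CPM in OPMHd4. The 4 pharyngeal muscle markers summed to 118.8 and 118.1 CPM against 89.1 and 111 CPM, with no call. None of 8 intestine markers was called, and their sum was 2190 and 2458 CPM against 1413 and 1778 CPM. Most of that sum is asp-1, at 1832 and 2096 CPM against 1101 and 1427 CPM. Of the 8 log2 fold changes, 3 were positive and 5 negative. The groups stood apart upwards for elt-2 and elt-7 and downwards for 4 of the 8. The 4 gonadal sheath markers, which include ceh-18, summed to between 124 and 127 CPM in all 4 libraries. Of 6 body wall muscle markers, pat-10 (troponin C) rose by 0.42 on the log2 scale, a call that was lost without any 1 library (edgeR adjusted p between 0.0636 and 0.205), under limma-voom (0.0601), and when edgeR used DESeq2 size factors (0.0525).

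**Figure D5:**
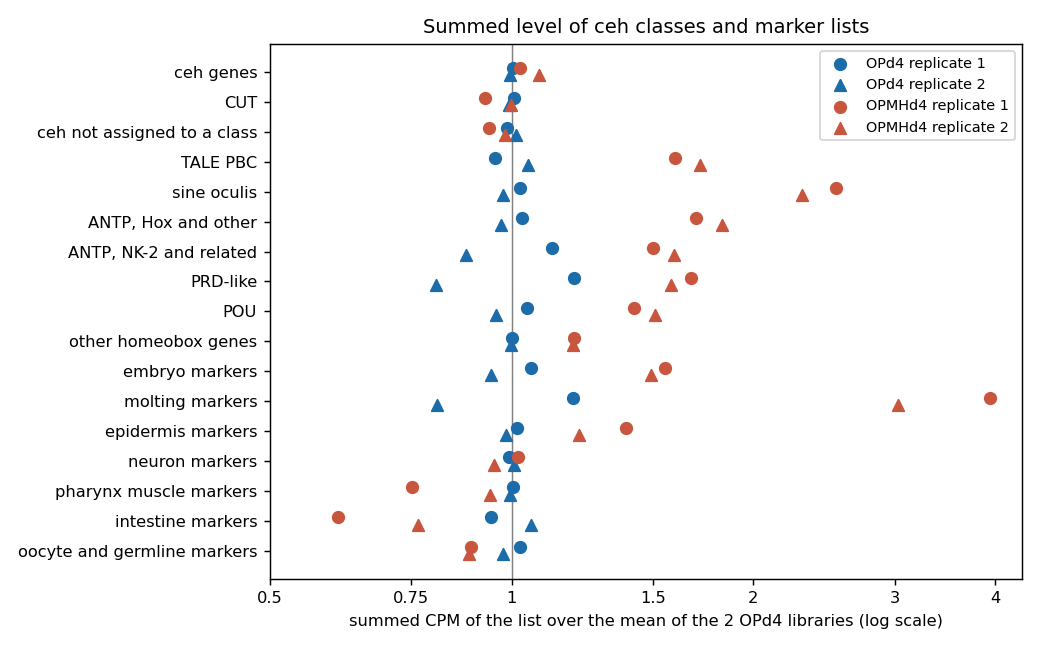
Summed CPM of ceh classes and marker lists in each library, divided by the mean of the 2 OPd4 libraries for the same list (x axis, log scale), with circles for replicate 1 and triangles for replicate 2. Sine oculis genes reach 2.54 and 2.30 in OPMHd4, embryo markers 1.55 and 1.49 and molting markers 3.94 and 3.03, while CUT genes lie at 0.926 and 0.9997 and neuron markers at 1.02 and 0.95.

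Where exons of 2 genes overlap, reads cannot always be given to one of them, and no source used here states whether the counting took account of strand. Of the 65 genes, 12 shared exon bases with another gene of the tables, 11 of them on the opposite strand. The 4 called ones among them (ceh-20, ceh-27, ceh-32 and ceh-34) overlap genes with at most 1 read in any library, over at most 10.5% of their exon bases. How reads in shared bases were counted is not stated, so these low counts do not show that the overlap had no effect. ceh-16, ceh-19, ceh-5 and ceh-60 overlap expressed genes on the opposite strand (polk-1, F20D12.2, ocrl-1 and ets-4), and their low values are uncertain for that reason.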

How the data were processed

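Per the labels' protocols, poly(A) RNA of whole worms was made into strand-preserving libraries. The submitters' processing notes list, among the tools, STAR 2.7.10a and featureCounts 2.0.1, beside cutadapt 3.7, Trim Galore 0.6.7 and Trimmomatic 0.39. The notes name the build as ce11 or WBcel235. How the tools were chained, whether counting used strand, and what became of multi-mapping reads were not given in the sources. Each deposited table holds raw counts per gene, in whole numbers. Groups follow the sample titles, although the column headers name the other group.

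The main test was edgeR 4.0.16 (R 4.3.3). Low counts were removed by filterByExpr, with a minimum count of 10 and a minimum total of 15, libraries were scaled by TMM, and the quasi-likelihood test was run on 12640 genes with the group as the only term and Benjamini-Hochberg adjustment over all of them, called under 0.05. A standard error is the log2 fold change over the square root of F. Alternatives used limma 3.58.1, DESeq2 1.42.0 and other settings, and those for genes that are no ceh gene were chosen after seeing the data. Any pair of libraries differed by more than sampling noise, the smallest chi-square being 10.1 per degree of freedom, so none was merged. In simulated data of 12341 tested genes for this comparison, 62% of 2-fold and 79% of 4-fold changes were recovered. Of the calls, 9.03% were false, more than the threshold of 0.05 aims for. Changes were planted only in genes with a mean above 1 CPM, so the recovery rates do not cover lower genes such as ceh-8. Both groups were simulated with the same spread per gene, and changes up and down were equally likely. In the data the OPMHd4 libraries differed more from each other (chi-square per degree of freedom of 24.8) than the OPd4 libraries (10.1). Calls were also mostly upward, 230 against 42 downward, so these rates may not hold for the real comparison. The ceh genes, class lists and marker lists were chosen with earlier results of these data known. Genes were named by a rule: those called, the 10 next by p-value, the 8 highest per length, 18 chosen ones, and called or leading genes of the other lists, and further ceh genes are named to account for every class. All 65 gene identifiers were found in Ensembl's annotation of WBcel235, with the same start and end for 15, so the tables' coordinates may differ from a current annotation. Sequences were not used here. Figures were drawn with matplotlib 3.10.9.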

Additional observations from a re-analysis of the deposited data

How the results depend on the processing

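The direction of the 5 called ceh genes held in all alternatives tried, and 0 ceh genes were called lower in any. With limma-voom, 4 ceh genes were called higher. With DESeq2 it was 7, with total counts as the only scaling 7, and at an adjusted p under 0.10 also 7. The number called higher, 5 in the main fit, was 8 without a filter on low counts and 8 with the replicate number as a block, and between 1 and 6 when each library was left out in turn, the 1 being without OPMHd4 replicate 1. For the other homeobox genes, 2 in the main fit, it was 4 with total counts as the only scaling, 11 without a filter, 7 with the replicate block, 6 at an adjusted p under 0.10, 6 with DESeq2, 1 with limma-voom, 1 with legacy=FALSE, and between 0 and 5 when each library was left out. Over all genes, 230 were called higher and 42 lower in the main fit, 815 and 297 without a filter, 450 and 109 with the replicate block, 369 and 95 with DESeq2, 135 and 27 with limma-voom, 371 and 69 at an adjusted p under 0.10, 92 and 19 without OPMHd4 replicate 1, and 325 and 141 without OPMHd4 replicate 2. The labels do not say that the replicate numbers pair the libraries, and same-numbered libraries deviated together with a correlation of 0.21 over 12640 genes. With the block, and also without a filter, ceh-8, ceh-48 and ceh-86 joined the 5 (edgeR adjusted p with the block of 0.0469, 0.01995 and 0.0305). Of the 44 tested ceh genes, 13 turned sign in at least 1 alternative, and none of the 13 was called. ceh-49 was at -0.00056 with DESeq2 size factors in edgeR and -0.00059 with DESeq2, and ceh-21 was at 0.020 with total counts as the only scaling. The other turns came when 1 library was left out. Over those 4 fits ceh-38 ranged from -0.19 to 0.0020, ceh-49 from -0.035 to 0.059, ceh-51 from -0.29 to 0.22, ceh-2 from -0.59 to 2.05, ceh-5 from -0.096 to 1.16, ceh-21 from -0.046 to 0.0049, ceh-30 from -0.395 to 0.72, ceh-40 from -0.17 to 0.38, ceh-41 from -0.035 to 0.10, ceh-79 from -0.31 to 0.096, ceh-82 from -0.18 to 0.25, ceh-88 from -0.081 to 0.18 and ceh-93 from -0.22 to 0.26. The cause of these differences was not tested. Depth limits the 21 untested genes and those with fewer than about 20 reads a library.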

Other observations

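Several ceh genes lie near each other on a chromosome. ceh-41, ceh-21 and ceh-39 follow each other on the minus strand of chromosome X with gaps of 120 and 1138 bases, and none was called. On chromosome V, ceh-27 and ceh-32 are 36679 bases apart on the same strand and both rose, at log2 fold changes of 1.42 and 1.16. On the same chromosome ceh-34 rose, while its neighbour ceh-33, at a gap of 3627 bases, had at most 7 reads in a library. The Otx genes ceh-36 and ceh-37, 11776 bases apart on chromosome X, had nearly equal log2 fold changes of 0.59 and 0.61, uncalled. ceh-92 and ceh-91, 27625 bases apart on chromosome III, were at -0.19 and -0.24, uncalled. ceh-89 was at 1.44 and ceh-90, 10226 bases from it, had 0 and 0 reads in OPd4 and 4 and 3 in OPMHd4, too few to test. Of the 65 genes, tested or not, 18 lie on chromosome X and 14 on chromosome II, and none of these was called. The called genes lie on chromosome III (2 of 9) and chromosome V (3 of 12), totals that also include untested genes. Over all tested genes, 1.82% were called higher. Shares by chromosome were not computed, so no pattern by chromosome can be read from these counts.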
